A study of Mus musculus with 4 samples.

Results

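Expression of *Tnf* and of 9 genes of the NF-kB pathway was followed through the immune cells of injured mouse muscle. These 10 genes were chosen by symbol, were found once each among the 27998 genes of the count tables, and had UMIs in all 4 libraries. They hold the cytokine gene *Tnf*, the subunit genes *Nfkb1*, *Nfkb2*, *Rel* and *Relb*, the inhibitor gene *Nfkbia*, the atypical inhibitors *Nfkbiz* and *Bcl3*, and the brakes *Tnfaip3* and *Tnip3*. The rule uses no measured value, although the list was drawn up with earlier results of these data known.

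Cardiotoxin, a venom toxin that destroys myofibres, had been injected into the tibialis anterior of male C57BL/6 mice aged 8-12 weeks. Leukocytes were enriched with magnetic beads against CD45 when the injury was 2 or 4 days old (dpi2 and dpi4), and their 3′ transcript ends were counted cell by cell. One library was labelled Control and another KO at each time point, so the design held 4 libraries with 1 per group. In the study, controls were *Bach1* fl/fl mice and KO mice were *Bach1* fl/fl Lyz2-Cre mice. The controls were littermates, and each library stands for 1 mouse in the study's description. In both genotypes *Bach1*, which encodes a heme-binding transcriptional repressor, was flanked by loxP sites, and only the KO mice carried Cre. Cre was driven by the *Lyz2* promoter, so deletion is limited to cells that use this promoter, such as monocytes, macrophages and neutrophils. No spread between animals was measured, no test was possible, and every interval below is a 95% interval that covers counting error only.

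NF-kB is a family of dimeric transcription factors held in the cytoplasm by IkB proteins. Signals such as TNF activate the IKK kinases, IkB is degraded, and the dimers enter the nucleus and switch on genes of inflammation. Among these targets are the pathway's own inhibitors, so that a cell under NF-kB activity makes more of the proteins that switch it off. In injured muscle the early wave of neutrophils and monocytes carries such a response before macrophages turn to repair.

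The regions around the start sites of the members that the results below turn on are shown here because several carry the letters of an NF-kB site close to the start. Windows ran from 250 bases before to 50 bases after the start in the RefSeq annotation of GRCm38.p6, and 7 of the 10 members had at least 1 such window. *Nfkb1*, *Relb* and *Nfkbiz* had none. *Tnfaip3* also had a second window, farther into the gene (chr10:19011914-19012213), which held 0 matches to either motif below and is not printed. Capitals mark a match on either strand to the NF-kB consensus or to TGANTCA, the core of the element that AP-1 binds and that forms part of the longer element of BACH1 with small MAF proteins. All sequences run 5′ to 3′ on the strand of the gene. They come from chr17:35201958-35202257 (minus strand, *Tnf*), chr11:23770920-23771219 (minus, *Rel*), chr12:55492598-55492897 (minus, *Nfkbia*), chr10:19015361-19015660 (minus, *Tnfaip3*) and chr6:65590148-65590447 (plus, *Tnip3*).
Tnf: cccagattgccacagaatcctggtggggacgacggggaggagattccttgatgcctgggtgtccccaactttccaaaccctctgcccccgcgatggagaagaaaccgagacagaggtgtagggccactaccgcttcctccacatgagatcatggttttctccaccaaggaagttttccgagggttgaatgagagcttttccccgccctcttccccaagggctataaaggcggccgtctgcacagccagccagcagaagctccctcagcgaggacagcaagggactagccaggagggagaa
Rel: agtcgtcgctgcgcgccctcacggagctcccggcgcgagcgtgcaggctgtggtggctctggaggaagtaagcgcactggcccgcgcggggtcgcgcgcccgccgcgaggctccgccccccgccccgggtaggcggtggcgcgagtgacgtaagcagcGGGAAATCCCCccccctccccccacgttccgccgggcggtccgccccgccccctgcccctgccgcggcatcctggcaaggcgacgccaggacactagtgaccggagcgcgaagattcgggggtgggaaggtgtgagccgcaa
Nfkbia: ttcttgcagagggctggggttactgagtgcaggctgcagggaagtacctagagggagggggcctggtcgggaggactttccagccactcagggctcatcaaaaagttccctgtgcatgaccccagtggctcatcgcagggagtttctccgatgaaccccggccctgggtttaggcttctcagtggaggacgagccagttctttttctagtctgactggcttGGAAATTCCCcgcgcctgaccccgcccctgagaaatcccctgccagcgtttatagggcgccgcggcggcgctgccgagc
Tnfaip3: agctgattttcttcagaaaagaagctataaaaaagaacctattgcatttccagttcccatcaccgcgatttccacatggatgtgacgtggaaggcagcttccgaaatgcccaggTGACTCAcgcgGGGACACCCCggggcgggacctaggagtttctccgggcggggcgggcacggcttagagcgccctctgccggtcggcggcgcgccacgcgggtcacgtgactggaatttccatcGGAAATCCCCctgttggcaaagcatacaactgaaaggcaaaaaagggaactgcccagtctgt
Tnip3: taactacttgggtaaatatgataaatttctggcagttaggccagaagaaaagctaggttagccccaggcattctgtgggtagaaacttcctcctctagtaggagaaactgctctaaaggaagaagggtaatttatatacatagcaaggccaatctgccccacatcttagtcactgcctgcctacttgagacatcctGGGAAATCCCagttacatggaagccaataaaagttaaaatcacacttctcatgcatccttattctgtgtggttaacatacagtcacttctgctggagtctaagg
The run of capitals in *Rel* is an overlapping pair of NF-kB matches. In *Tnfaip3* the first run of capitals is TGANTCA and the other runs are NF-kB matches, with no overlap between the motifs. Of the 7 members with a window, 6 held an NF-kB match in at least 1 window, and *Tnf* did not. Over all 32851 windows of 27025 genes, 4.51% held such a match. TGANTCA was found in windows of 2 of the 7 members, *Nfkb2* and *Tnfaip3*, against 7.81% of all windows. These shares are per window, whereas the member counts are per gene. *Nfkb2* had 3 windows, of which windows 2 and 3 overlap and share an NF-kB match. A match of letters is a description of the window and does not show binding.

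The libraries held 4177 to 6602 barcodes and 57010520 to 80228489 UMIs (distinct RNA molecules), and 3433 to 5721 cells were kept. Pairs of libraries shared 2 to 14 cell barcodes. Per-gene 3′ counts check nothing about a deletion of exon 4, the part of *Bach1* that is flanked by loxP sites in the study, and *Bach1* was at 126 CPM in control and 145 CPM in KO-labelled macrophages at dpi2. CPM here are UMIs scaled to 1000000 UMIs of a cell class in a library. *Lyz2*, whose promoter drives Cre, followed the labels, with 8088 CPM in control and 12.96 CPM in KO-labelled macrophages at dpi2, and 18369 and 24.4 CPM at dpi4. KO-labelled and control cells therefore differed in *Lyz2* transcript too, and its part in the ratios below was not tested. *Hmox1*, a known BACH1 target, was higher in the KO-labelled macrophages, with 10471 CPM against 671 CPM in the dpi2 control and 7425 CPM against 510 CPM in the dpi4 control. Classes were named from marker genes. All 12 macrophage markers had UMIs in the macrophages of every library, and at dpi2 also in monocytes and neutrophils, at lower levels. In the dpi2 control they summed to 15059 CPM in macrophages, 3767 CPM in monocytes and 782 CPM in neutrophils. A cluster led by *Mirt1* and *Ccl3*, whose best class was neutrophil, is called the *Mirt1 Ccl3* cluster. The cluster stayed unnamed because its depth was low and no neutrophil marker was among its leading genes. It held 486 cells of the KO-labelled and 85 of the control library at dpi2. A cluster led by the muscle genes *Mylpf* and *Acta1*, whose best class was macrophage, also stayed unnamed and is not in the macrophage sums. At dpi4 it held 330 control and 51 KO-labelled cells, 7.91% and 1.49% of those kept. An unnamed cluster led by *Igfbp5* held 101 and 25 cells at dpi4.

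The members differed in the leukocyte classes where they were highest, and several members shared such a class. The order of classes below is taken over those with at least 50 cells in a library, unless a smaller number is given. *Tnf* (chr17:35199381-35202007 in GRCm38, minus strand), the ligand of the pathway, was highest in the *Mirt1 Ccl3* cluster, at 3970 CPM in the control and 4014 CPM in the KO-labelled library at dpi2. Neutrophils followed, at 2412 CPM (control) and 2078 CPM (labelled KO) at dpi2 and 1516 CPM in the control at dpi4. Monocytes (229 to 345 CPM over 3 libraries) and macrophages (123 to 229 CPM over 4) lay lower, and the lowest monocyte value, which rests on 108 UMIs of 60 cells, did not differ from the highest macrophage value beyond counting error. Macrophages and cDC2-like cells (93.2 to 205 CPM) overlapped. The latter are named after the conventional dendritic cells that prime CD4+ T cells. In the dpi2 control the 7 cDC2 markers summed to 1625 CPM in them, 11.8 CPM in macrophages and 12.7 CPM in monocytes. The 8 monocyte markers summed to 3381 CPM in the same cDC2-like cells. *Tnf* was close to absent from NK cells (3.60 to 6.19 CPM) and from cDC1-like cells (2.35 CPM in 1 library). For shares of cells, each cell was thinned to 2000 UMIs, and cells with fewer UMIs were left out. At dpi2 this left out 167 control and 54 KO-labelled neutrophils, and 71 control and 29 KO-labelled macrophages. In the thinned dpi2 control, 80.3% (95% exact binomial interval 76.4 to 83.8%) of neutrophils held a *Tnf* UMI. Of the thinned control macrophages at dpi2, 24.1% (22.3 to 26.1%) held one. Before thinning, over all cells of the class, the shares were 79.8% and 68.8%, at median depths of 2308 and 17670.5 UMIs. Among NK cells of the same library, the low end of the order, the thinned share was 1.39% (1 of 72 cells, interval 0.0352 to 7.50%) and the unthinned share 2.74%, at a median depth of 3950 UMIs.

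**Figure D1:**
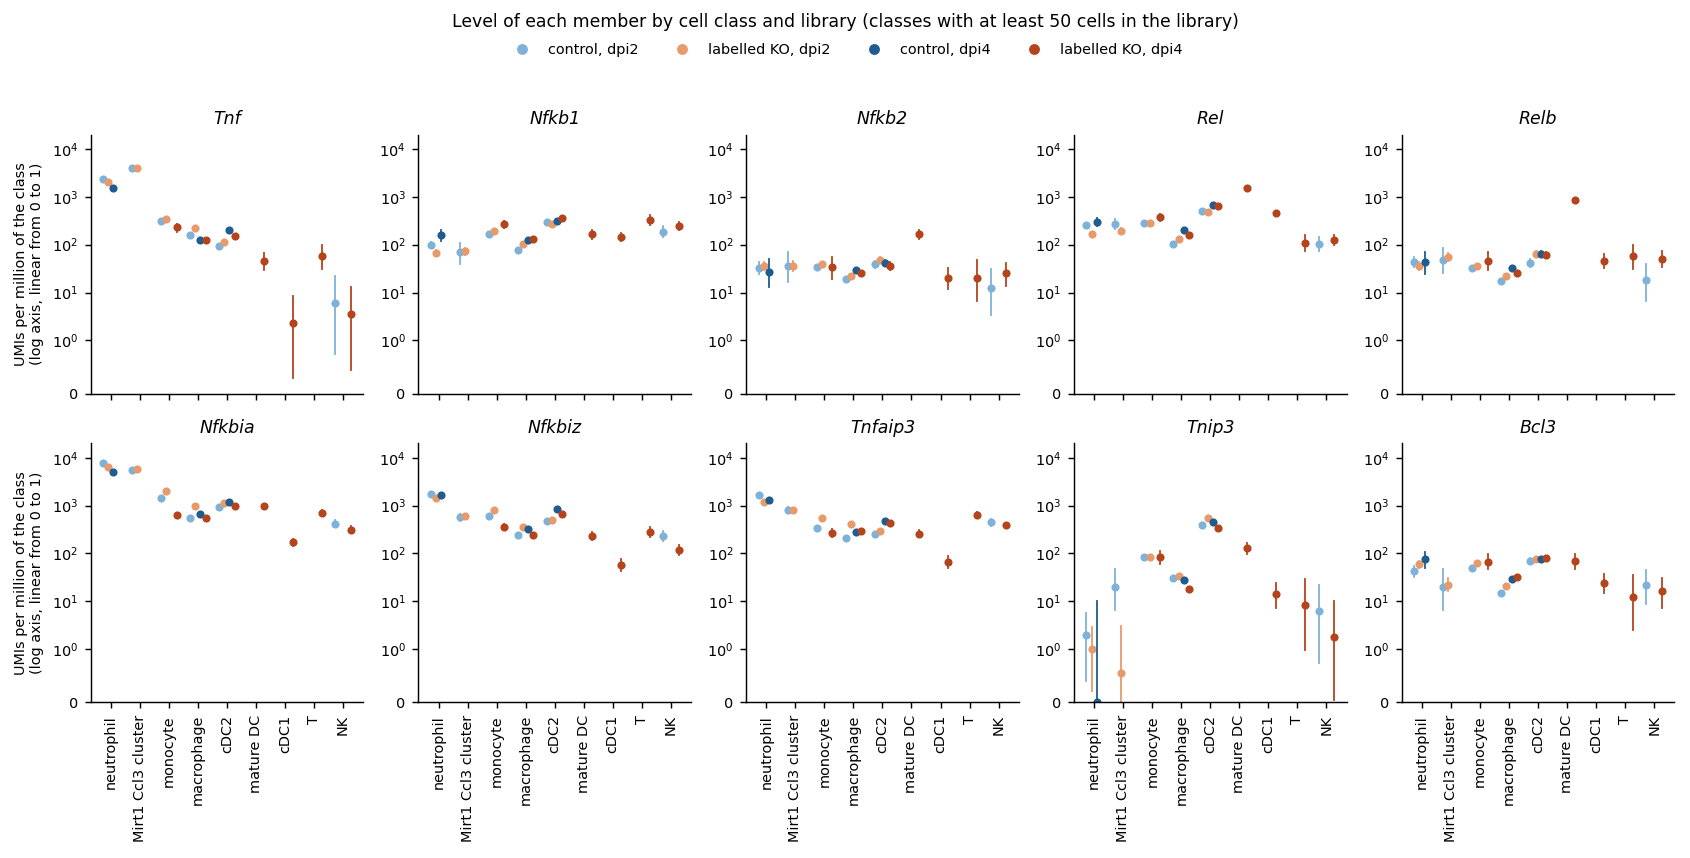
Level of each member in CPM (vertical axis, logarithmic above 1 and linear from 0 to 1) in each cell class with at least 50 cells in a library, 1 point per library with its 95% Poisson interval. *Tnf*, *Nfkbia*, *Nfkbiz* and *Tnfaip3* peak in neutrophils or the *Mirt1 Ccl3* cluster, *Rel*, *Relb* and *Nfkb2* in mature dendritic cells, and *Tnip3* in cDC2-like cells.

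The subunit genes were highest in lymphoid and dendritic cells rather than in phagocytes. *Relb* (chr7:19606217-19629438, minus strand), the partner of p52 in the non-canonical pathway, reached 872 CPM in the mature dendritic cells of the KO-labelled dpi4 library, against 41.7 to 65.4 CPM in cDC2-like cells and 17.3 to 32.5 CPM in macrophages. In the 3 libraries with under 50 mature dendritic cells (22 to 42 cells) *Relb* lay at 647 to 871 CPM, so all 4 libraries placed it there. *Rel* (chr11:23736847-23770970, minus), the c-Rel subunit of activated lymphocytes and antigen-presenting cells, stood at 1503 CPM in those mature dendritic cells and at 484 to 683 CPM in cDC2-like cells. cDC1-like cells followed at 449 CPM, and none of these 3 classes overlapped. B cells, of which each library held only 6 to 15, had *Rel* at 436 to 1353 CPM. *Nfkb2* (chr19:46304320-46312385, plus), which encodes p52, was at 165 CPM in mature dendritic cells and at most 47.7 CPM in any other class with 50 cells, where neighbours overlapped from cDC2-like cells to neutrophils. *Nfkb1* (chr3:135584655-135691547, minus), which encodes p50, was highest in T cells (332 CPM in 1 library) and cDC2-like cells (276 to 354 CPM), which did not differ beyond their range. In the few B cells *Nfkb2* ran from 33.9 to 120 CPM, on 1 to 5 UMIs, and *Nfkb1* from 102 to 545 CPM, on 4 to 31 UMIs.

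The inhibitors and brakes followed neutrophils, with a pair of exceptions. *Nfkbia* (chr12:55489410-55492647, minus), which encodes IkBα, lay at 5054 to 7837 CPM in neutrophils over 3 libraries and at 5647 to 5842 CPM in the *Mirt1 Ccl3* cluster, and the ranges overlapped. *Nfkbiz* (chr16:55811375-55838899, minus), encoding the nuclear coactivator IkBζ, was at 1417 to 1717 CPM in neutrophils, above cDC2-like cells (488 to 835 CPM) and monocytes (358 to 820 CPM). *Tnfaip3* (chr10:19000910-19015657, minus), which encodes the ubiquitin-editing enzyme A20, was at 1188 to 1700 CPM in neutrophils and at 804 to 828 CPM in the *Mirt1 Ccl3* cluster. T cells came next at 640 CPM and NK cells at 387 to 445 CPM, and monocytes (269 to 539 CPM), cDC2-like cells and macrophages (211 to 408 CPM) overlapped. The exceptions were *Tnip3* and *Bcl3*. *Tnip3* (chr6:65525313-65634040, plus), whose ABIN-3 protein works with A20, was a gene of cDC2-like cells, at 339 to 543 CPM in the 4 libraries, and was at 129 CPM in mature dendritic cells, 83.5 to 85.8 CPM in monocytes and 18.0 to 34.1 CPM in macrophages. In neutrophils only 0 to 3 *Tnip3* UMIs were counted per library. After thinning, *Tnip3* was found in 44.1% (113 of 256) of the control cDC2-like cells at dpi2 and in 0.641% of the control neutrophils, and unthinned in 67.4% and 0.472%, at median depths of 11017 and 2308 UMIs. *Bcl3* (chr7:19808462-19822770, minus), a nuclear partner of p50 and p52 dimers, ran from 12.3 CPM in T cells to 70.3 to 81.0 CPM in cDC2-like cells. In neutrophils *Bcl3* was at 42.6 to 75.8 CPM, a range that overlapped that of cDC2-like cells.

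The genes most like *Tnf* over classes and libraries were *Il1rn* (Pearson r = 0.963), the IL-1 receptor antagonist, *Ccrl2* (0.951), *Ets2* (0.933), *Cited2* (0.931) and the neutrophil chemokine *Cxcl2* (0.928). Those most like *Nfkb1* were *Mycbp2* (0.869), *Hivep2* (0.858), *Tacc1* (0.831), *Fyn* (0.826) and *H2afy* (0.821). Likeness was measured on log2(CPM + 1) over 24 points of 11 classes, among 5756 genes, and is given as a description. The points of a library share its preparation and depth. Within the 10 members the values ran from -0.46 for *Tnf* with *Nfkb1* to 0.923 for *Tnf* with *Nfkbia*. *Nfkbia* with *Nfkbiz* (0.884) and *Nfkb2* with *Relb* (0.869) were next to the highest.

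The main comparison asked how the members differed between KO-labelled and control cells of the same class. In macrophages at dpi2, where 2072 control and 1083 KO-labelled cells held 39021430 and 29638474 UMIs, all 10 members had a ratio over 1 and *Nfkbia* and *Tnfaip3* were higher by at least 1.5-fold. *Tnfaip3* lay at 211 CPM in the control and 408 CPM in the KO-labelled library at dpi2, and at 283 and 291 CPM at dpi4. The ratio at dpi2 was 1.94 (interval 1.88 to 1.99) and that at dpi4 was 1.03 (1.01 to 1.05). *Nfkbia* lay at 549 and 992 CPM at dpi2, a ratio of 1.81 (1.77 to 1.84), and at 665 and 551 CPM at dpi4, a ratio of 0.829 (0.816 to 0.842). Over the 4 libraries both inhibitors were highest in the KO-labelled dpi2 library, and at dpi4 *Nfkbia* was lower in the KO-labelled than in the control library. With monocytes pooled into the class 1 member passed the size rule described next, and 4 did so after thinning, with doublets kept or with each library clustered by itself.

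A size rule was used in place of a test: a ratio of at least 1.5-fold in either direction, which is the fold limit in the methods of the study, an interval that leaves out 1, and at least 50 UMIs in the pair. By this rule 2 of the 10 members were higher and 0 lower in KO-labelled macrophages at dpi2, where 5.22% of the 11113 genes with 50 UMIs were higher and 5.91% lower. At dpi4, 0 were higher and 1 lower, against 3.17% and 4.13% of 11953 genes. The median log2 ratio of the members was 0.44 at dpi2 and -0.22 at dpi4, and that of all genes was -0.01 and 0.01. Passing the rule is a statement about 4 libraries, with no call of change by a test. The sums also mix states whose numbers differed between the libraries. At dpi4 a macrophage cluster led by *Slc40a1*, *Vcam1* and *Spic* held 786 KO-labelled and 59 control cells, and one led by *Sepp1* held 442 and 1116. At dpi2 a monocyte cluster led by *Cxcl10* held 95 KO-labelled and 929 control cells, whereas the *Arg1* and *Mrc1* clusters, which held most macrophages, had 591 and 359 KO-labelled and 1136 and 669 control cells.

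*Tnf* itself was at 163 CPM in control and 229 CPM in KO-labelled macrophages at dpi2, a ratio of 1.40 (1.36 to 1.45), and at 126 and 123 CPM at dpi4, a ratio of 0.970 (0.937 to 1.005). The dpi2 ratio stayed under the size rule, and at dpi4 the libraries did not differ beyond counting error. *Nfkbiz* reached 240 and 356 CPM at dpi2, a ratio of 1.49 (1.44 to 1.53) just under the rule, and 322 and 246 CPM at dpi4 (ratio 0.765, 0.747 to 0.783). *Bcl3* was at 14.7 and 20.8 CPM at dpi2 (1.42, 1.26 to 1.59) and at 30.0 and 32.7 CPM at dpi4 (1.09, 1.02 to 1.17).

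The subunit genes had smaller dpi2 ratios than *Nfkbia*, *Nfkbiz* and *Tnfaip3*. *Nfkb1* was at 77.4 and 102 CPM at dpi2 (1.32, 1.25 to 1.39) and at 125 and 131 CPM at dpi4 (1.05, 1.01 to 1.09). *Rel* was at 103 and 129 CPM at dpi2 (1.25, 1.197 to 1.31) and at 198 and 162 CPM at dpi4 (0.819, 0.795 to 0.843). *Relb*, at 17.3 and 22.5 CPM, and *Nfkb2*, at 19.5 and 22.2 CPM, had dpi2 ratios of 1.30 and 1.14. At dpi4 their ratios were 0.783 and 0.889. *Tnip3*, at 31.4 and 34.1 CPM at dpi2, had the ratio nearest to 1 (1.09, 0.998 to 1.18), and its log2 ratio of 0.12 was -0.09 after thinning and -0.59 with each library clustered by itself. It was the member past the rule at dpi4, lower at 18.0 CPM in KO-labelled than at 27.6 CPM in control macrophages, a ratio of 0.652 (0.598 to 0.710). With doublets kept or monocytes pooled in, *Tnip3* was not past the rule there.

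**Figure D2:**
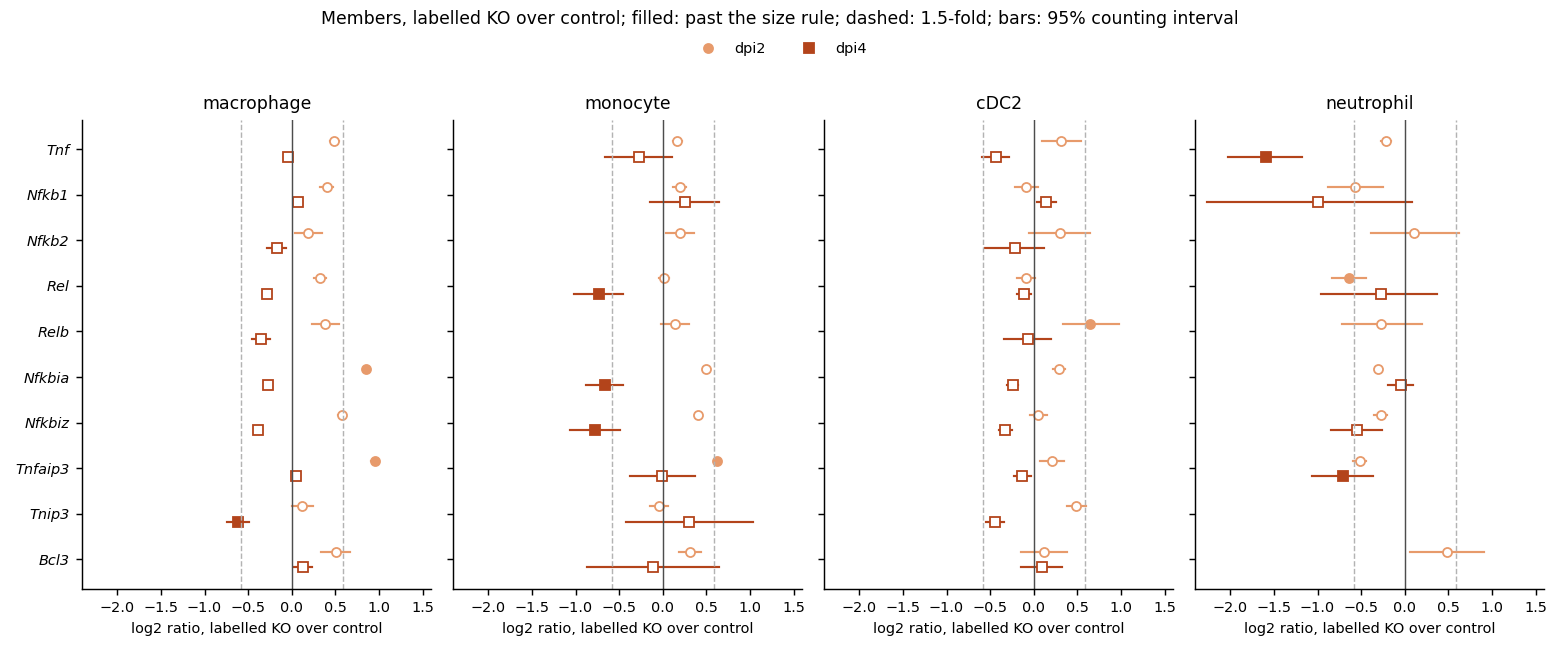
Log2 ratio of KO-labelled over control (horizontal axis) for each member in 4 cell classes at dpi2 (circles) and dpi4 (squares), with 95% counting intervals. Filled symbols pass the size rule, dashed lines mark 1.5-fold, and members with under 50 UMIs in a pair are left out. All 10 macrophage points are above 0 at dpi2, and in macrophages each dpi4 point lies to the left of its dpi2 point.

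The log2 ratio of KO-labelled over control macrophages was lower at dpi4 than at dpi2 for every member. The dpi4 minus the dpi2 log2 ratio was -1.12 for *Nfkbia* (interval -1.16 to -1.09), -0.96 for *Nfkbiz*, -0.91 for *Tnfaip3*, -0.74 for *Relb* and -0.74 for *Tnip3*. It ended at -0.33 for *Nfkb1* (-0.42 to -0.24), and all 10 intervals lay below 0. Each value rests on 4 libraries of 1 mouse each, so the spread between mice is not in these intervals.

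The wider pathway was counted in the same way in macrophages at dpi2, where 5.22% of all genes with 50 UMIs were higher and 5.91% lower. Of the NF-kB target genes, a list of 19 chosen with results of these data known, 18 had 50 UMIs, 13 were higher and 0 lower, with a median log2 ratio of 0.82. From control to KO-labelled cells *Il6* went from 0.692 to 7.76 CPM, *Il1a* from 2.92 to 23.0 CPM, *Cxcl3* from 8.79 to 54.9 CPM and the inflammasome substrate *Il1b* from 129 to 506 CPM. Among the 10 TNF receptors and adaptors 2 were higher, *Birc3* (29.0 to 57.5 CPM), a ubiquitin ligase of the TNF receptor complex, and *Traf1* (27.3 to 44.0 CPM). Of the 9 IKK and further IkB genes 2 were higher, *Ikbkg* (16.7 to 39.3 CPM), the scaffold of the IKK complex, whose annotated span overlaps *G6pdx* on the other strand, and *Nfkbid* (80.4 to 122 CPM). Of 9 further brakes 2 were higher, the RNA-decay factors *Zc3h12a* (33.5 to 50.9 CPM) and *Zfp36* (574 to 866 CPM). At dpi4, 0 genes of the target list were higher and 6 lower, including *Cxcl1* (86.8 to 46.6 CPM), *Il1b* (392 to 231 CPM), *Cd40* (23.2 to 13.8 CPM) and *Gadd45b* (512 to 317 CPM), with a median of -0.35. The receptors had none past the rule at dpi4, the IKK list 1 higher (*Ikbkg*, 13.4 to 20.7 CPM) and the brakes 1 lower (*Tnip2*, 16.8 to 11.1 CPM). The shares of all genes with 50 UMIs at dpi4 were 3.17% higher and 4.13% lower.

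Other quantities moved with the genotype in macrophages at dpi2. The median depth was 17670.5 UMIs per control and 26118 per KO-labelled macrophage. The 8 neutrophil markers summed to 100 CPM in control and 259 CPM in KO-labelled macrophages at dpi2, and to 97.0 and 75.7 CPM at dpi4, with *Ly6g* at 0 in 3 of the 4 libraries. Neutrophils themselves held 52333 and 73773 CPM of these markers at dpi2. At the ratio of *Tnfaip3* to these markers in neutrophils, such marker levels go with 3.26 CPM of *Tnfaip3* in control and 4.17 CPM in KO-labelled macrophages, and with 15.04 and 22.1 CPM of *Nfkbia*. At the ratio in the *Mirt1 Ccl3* cluster they go with 10.8 and 13.9 CPM of *Tnfaip3*, 74.0 and 101 CPM of *Nfkbia* and 52.0 and 69.5 CPM of *Tnf*. For genes of the target list, that ratio goes with 270 and 400 CPM of *Ccl3*, where 308 and 478 CPM were measured. For *Ccrl2* it goes with 97.6 and 121 CPM, where 117 and 224 CPM were measured. For *Il1b* it goes with 25.9 and 40.3 CPM, where 129 and 506 CPM were measured. The part of neutrophil RNA in the ratios of the members and of the target list was not tested. Of the 15 dissociation and immediate early genes, 4 were higher (*Junb*, 702 to 1474 CPM, *Fosb*, 284 to 484 CPM, *Egr1*, 387 to 651 CPM, and *Jund*, 198 to 301 CPM) and *Hspa1b* was lower (45.3 to 24.8 CPM). The part of dissociation in the members' ratios was not tested.

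In monocytes at dpi2 *Tnfaip3* again had the highest ratio. *Tnfaip3* lay at 349 CPM in 2470 control and at 539 CPM in 977 KO-labelled cells, a ratio of 1.54 (1.497 to 1.59), and was the 1 of 10 members past the rule (background 5.33% higher, 6.66% lower). It was not past the rule after thinning, with the mean of per-cell CPM or with a 20% mitochondrial limit. *Nfkbia* (1417 and 1997 CPM, ratio 1.41, 1.39 to 1.43) and *Nfkbiz* (618 and 820 CPM, 1.33, 1.29 to 1.36) followed below 1.5-fold. *Tnf* (307 and 345 CPM) and *Rel* (278 and 281 CPM) had ratios of 1.12 and 1.01, and *Tnip3* (85.8 and 83.5 CPM) had one of 0.973. The ratios of *Nfkb1*, *Nfkb2*, *Relb* and *Bcl3* ran from 1.10 to 1.24. The target list again had most of its genes higher: 12 of 18 were higher and 1, *Cd40*, was lower (33.0 to 16.6 CPM), while the dissociation list had 0 higher and 3 lower. *Cxcl3* went from 24.6 to 151 CPM, *Il1a* from 11.2 to 52.9 CPM, *Il6* from 31.5 to 102 CPM and *Ptgs2*, the inducible prostaglandin synthase, from 449 to 1402 CPM. Neutrophil markers summed to 216 CPM in control and 427 CPM in KO-labelled monocytes, which go with 7.01 and 6.88 CPM of *Tnfaip3* at the neutrophil ratio and with 23.3 and 23.0 CPM at that of the *Mirt1 Ccl3* cluster. For *Tnf* the latter ratio goes with 112 and 115 CPM, where 307 and 345 CPM were measured. For *Ccl3* of the target list it goes with 581 and 661 CPM, where 582 and 711 CPM were measured. For *Ccrl2* it goes with 210 and 200 CPM, where 268 and 456 CPM were measured. For *Il1b* it goes with 55.7 and 66.5 CPM, where 1724 and 4684 CPM were measured. The part of neutrophil RNA in the monocyte ratios was not tested. At dpi4 only 46 control and 60 KO-labelled monocytes were left, and *Rel* (617 and 371 CPM), *Nfkbia* (1016 and 640 CPM) and *Nfkbiz* (614 and 358 CPM) were lower among the 8 members with 50 UMIs, with backgrounds of 5.26% higher and 6.06% lower. These 3 ratios rest on 169 to 443 UMIs per library, and none of the 3 was past the rule when cells with 200 genes were kept or doublets were left in.

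Within single clusters, where the cells are more alike, *Tnfaip3* was past the rule in each of the 5 monocyte and macrophage clusters with 50 cells in both dpi2 libraries, with log2 ratios from 0.59 in the *Vcan* monocytes (322 to 483 CPM) to 0.99 in the *Arg1* macrophages (217 to 430 CPM). Of all genes with 50 UMIs, 5.31% were higher by the rule in the *Arg1*, 5.44% in the *Mrc1*, 5.6% in the *Vcan*, 5.01% in the *F10* and 3.54% in the *Cxcl10* cluster. *Nfkbia* had ratios over 1 with intervals above 1 in all 5, but passed the rule in the *Arg1* macrophages alone (472 to 986 CPM, log2 ratio 1.06). That cluster, marked by the arginase gene *Arg1* and the scavenger receptor *Cd36*, also held *Nfkbiz* (161 to 289 CPM, 0.84), *Bcl3* (0.81) and *Tnf* (143 to 223 CPM, 0.64) past the rule. *Nfkbiz* passed in the *F10* monocytes as well (475 to 738 CPM, 0.64). *Tnip3* went the other way in the *Cxcl10* monocytes (84.6 to 36.5 CPM, -1.21) and in the *Mrc1* macrophages (44.0 to 21.9 CPM, -1.01), while the class sums had ratios of 0.973 and 1.09. Lower by the rule were 3.8% of all genes in the *Cxcl10* and 5.7% in the *Mrc1* cluster.

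At dpi4 the 7 macrophage clusters with 50 cells in both libraries gave no such common pattern. *Rel* was below 0 in all 7, from -0.70 in the *Arg1* to -0.01 in the *Ifit2* macrophages, though only the *Arg1* cluster passed the rule. *Nfkbia* (-0.64) and *Nfkbiz* (-0.63) passed in the *Mmp12* macrophages, which express genes of lysosomes and bone-resorbing cells. *Tnip3* was lower past the rule in the *Arg1* (-1.75), *Ifit2* (-0.82) and *Top2a* (-0.76) clusters. In the *Slc40a1* cluster, which carries the iron exporter, *Tnip3* had 3 UMIs in the control and 94 in the KO-labelled library, a ratio of 2.99 (0.991 to 14.7). The *Arg1* cluster had 6 members lower past the rule at dpi4, on 73 control and 68 KO-labelled cells, where 5.55% of 6212 genes were lower. The share of all genes lower by the rule was 3.29% in the *Mmp12*, 3.41% in the *Ifit2* and 2.78% in the *Top2a* cluster.

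**Figure D3:**
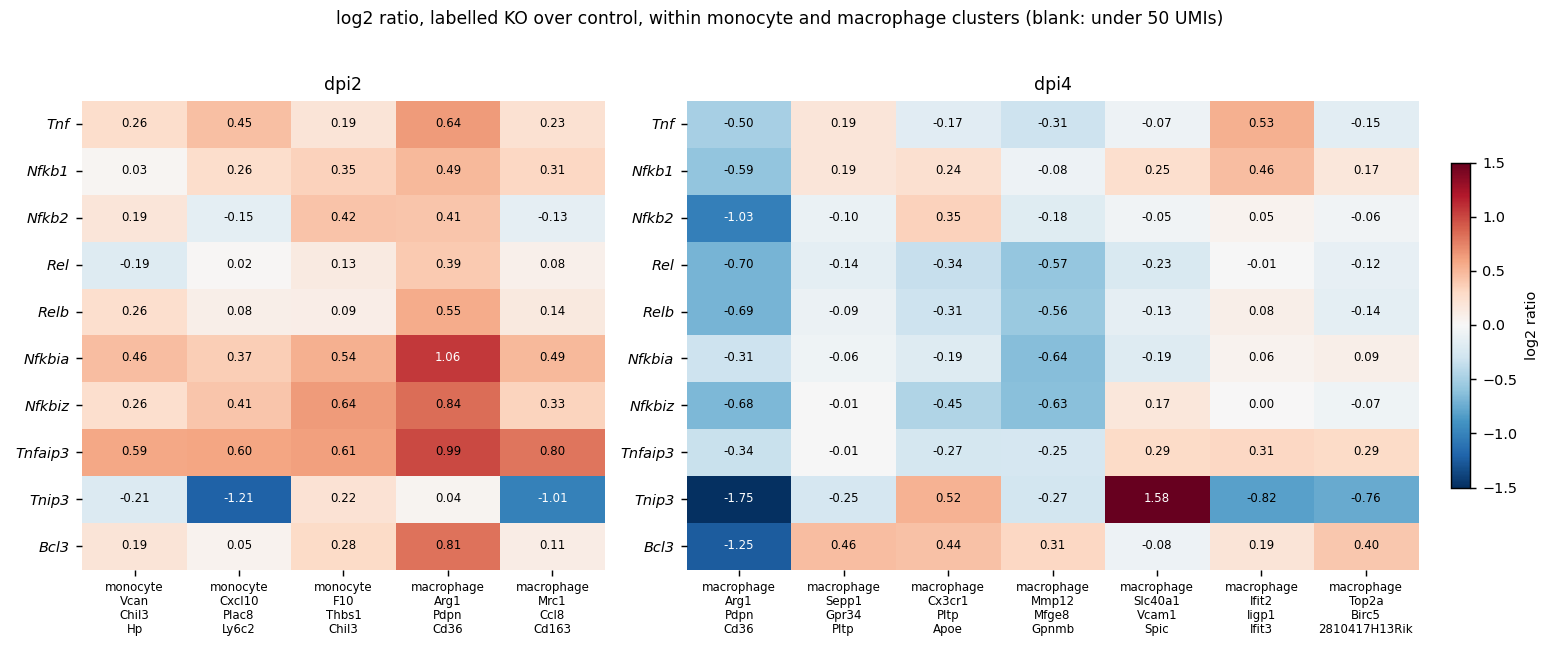
Log2 ratio of KO-labelled over control for each member (rows) in clusters named by class and 3 leading genes (columns) with at least 50 cells in both libraries, at dpi2 (left) and dpi4 (right). Colour runs from -1.5 (blue) to 1.5 (red). *Tnfaip3* is red in every dpi2 column, and *Rel* is at or below 0 in every dpi4 column.

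Time was compared within a genotype. In control macrophages 5 members were higher at dpi4 than at dpi2 and 0 lower, against a background of 17.5% higher and 17.7% lower. These were *Bcl3* (14.7 to 30.0 CPM, ratio 2.04, 1.85 to 2.24) and all 4 subunit genes: *Rel* (103 to 198 CPM, 1.93), *Relb* (17.3 to 32.5 CPM, 1.88), *Nfkb1* (77.4 to 125 CPM, 1.61) and *Nfkb2* (19.5 to 29.2 CPM, 1.501). In KO-labelled macrophages *Bcl3* (20.8 to 32.7 CPM, 1.57, 1.43 to 1.73) was the 1 member higher, and *Nfkbia* (992 to 551 CPM, 0.556), *Tnf* (229 to 123 CPM, 0.536) and *Tnip3* (34.1 to 18.0 CPM, 0.526) were lower, with a background of 17.1% higher and 15.3% lower. The subunit genes had ratios of 1.13 to 1.28 there. With monocytes pooled into the class, 0 members were higher and 2 lower in the controls, and the log2 ratio of *Bcl3* in the KO-labelled libraries was -0.041 in place of 0.65. *Tnf* was also lower at dpi4 in the controls, at a ratio of 0.776 (0.750 to 0.803), which the rule does not reach. The median log2 ratio over the members was 0.51 in controls and -0.15 in KO-labelled libraries, against -0.07 and -0.05 over all genes. The dissociation list moved with time as well, with 6 of 15 higher and 3 lower in the controls and 1 higher and 1 lower in the KO-labelled libraries, and its part was not tested. Macrophages of dpi2 and dpi4 also fell into different clusters, the *Arg1* and *Mrc1* clusters holding most of them at dpi2 and the *Sepp1*, *Cx3cr1*, *Mmp12*, *Ifit2* and *Slc40a1* clusters at dpi4.

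**Figure D4:**
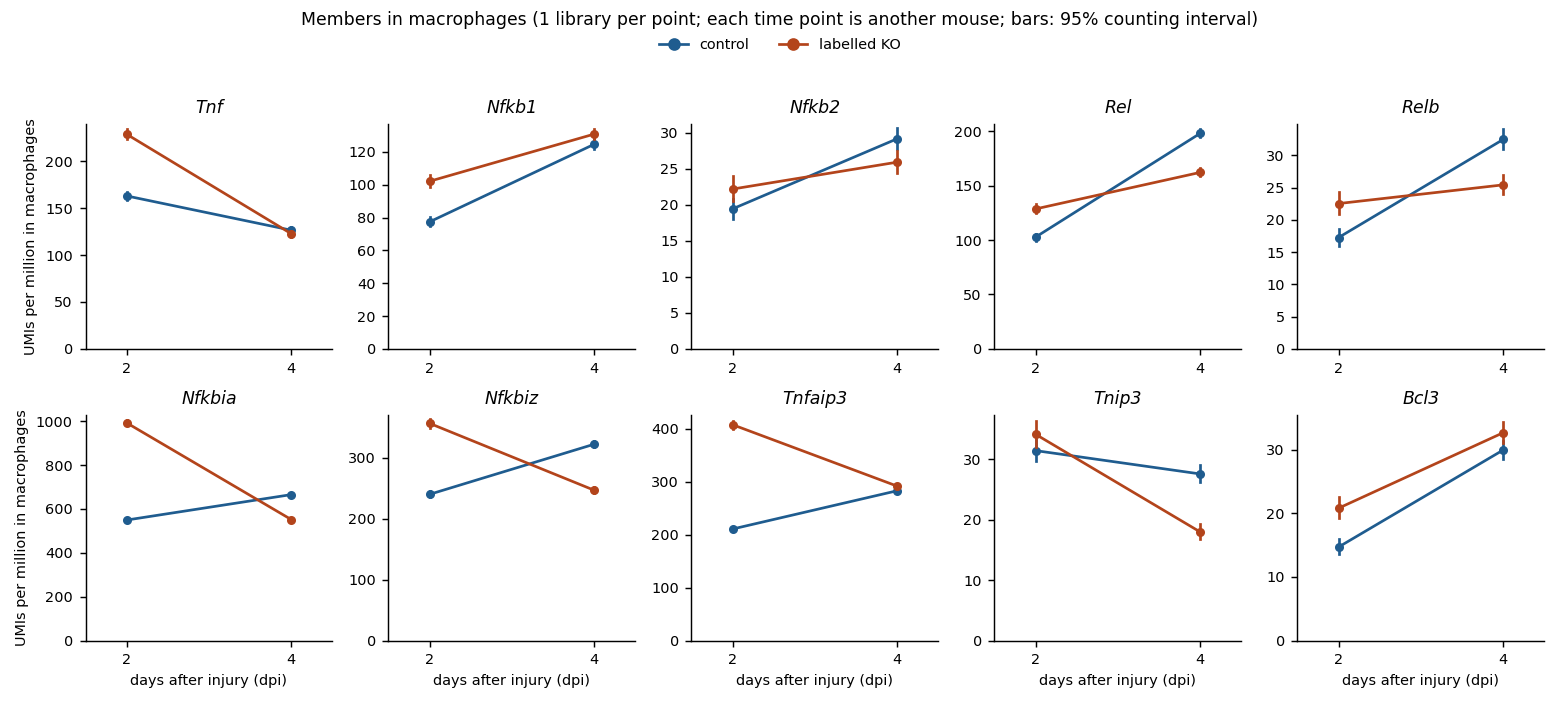
CPM of each member in macrophages (vertical axes from 0) at 2 and 4 days after injury, in control (blue) and KO-labelled (orange) libraries, 1 library per point with its 95% Poisson interval. Control lines slope up for 8 members, and KO-labelled lines slope down for *Tnf*, *Nfkbia*, *Nfkbiz*, *Tnfaip3* and *Tnip3*.

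Neutrophils, which carry the highest *Nfkbia*, *Nfkbiz* and *Tnfaip3*, had lower levels of these 3 genes in the KO-labelled library at dpi2, although with TMM scaling *Nfkbia* (log2 ratio 0.06) and *Nfkbiz* (0.10) were higher and *Tnfaip3* (-0.14) stayed lower. *Tnf* (-0.21, and 0.16 with TMM) and *Relb* (-0.27 and 0.11) also changed direction with that scaling, and median-of-ratios scaling turned the same 4 genes. *Tnfaip3* lay at 1700 CPM in 635 control and 1188 CPM in 823 KO-labelled neutrophils, a ratio of 0.699 (0.664 to 0.735), and *Nfkbia* at 7837 and 6313 CPM, a ratio of 0.806 (0.787 to 0.824). *Rel*, at 255 and 164 CPM (0.643, 0.562 to 0.737), was lower past the rule, the 1 of 9 members with 50 UMIs, against a background of 4.75% higher and 21.6% lower. The median log2 ratio of all genes in neutrophils was itself -0.30 and that of the members -0.28, and TMM scaling, which evens out such a shift, moved every ratio by 0.38 and left *Rel* at -0.26. In TMM scaling *Bcl3* (42.6 and 59.4 CPM, log2 ratio 0.48) was at 0.86 and past the rule. At dpi4 there were 129 control and 36 KO-labelled neutrophils, and *Tnf* was at 1516 and 504 CPM, a ratio of 0.333 (0.245 to 0.444). *Tnfaip3* was lower as well, at 1324 and 811 CPM (0.613, 0.479 to 0.776), among 6 members with 50 UMIs (background 4.64% higher, 7.61% lower). The *Mirt1 Ccl3* cluster at dpi2 had *Tnf* at 3970 and 4014 CPM, a ratio of 1.01 (0.946 to 1.08). In it 0 of 8 members were past the rule in either direction, against 6.98% higher and 19.2% lower over 3895 genes, and *Rel* had the lowest ratio (272 and 198 CPM, 0.727).

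Among dendritic cells, the cDC2-like cells were numerous enough to compare. At dpi2 they held *Lyz2* at 1958 CPM in control and 2.36 CPM in KO-labelled cells, and *Hmox1* at 39.8 and 429 CPM. In cDC2-like cells at dpi2 (258 control and 200 KO-labelled cells) *Relb* was higher, at 41.7 and 65.4 CPM, a ratio of 1.57 (1.26 to 1.96), the 1 of 10 past the rule (background 4.13% higher, 5.04% lower). After thinning to 2000 UMIs, without the cells below that depth, its log2 ratio was 0.08. *Tnip3*, the gene these cells hold at the highest level of any class, was at 387 and 543 CPM at dpi2 (1.40, 1.30 to 1.51) and at 461 and 339 CPM at dpi4 (0.736, 0.684 to 0.791). At dpi4, 0 of 10 members were past the rule in 305 control and 313 KO-labelled cells, against 2.7% higher and 2.21% lower, and *Tnf* was at 205 and 151 CPM (0.739, 0.662 to 0.824). The dissociation list moved with the genotype there too, with 4 of 15 genes lower at dpi2 (*Hspa1b*, 161 to 13.5 CPM) and 2 higher at dpi4 (*Hspa1b*, 30.7 to 86.9 CPM), and its part was not tested. Between the time points, *Tnf* in cDC2-like cells was at 93.2 CPM at dpi2 and 205 CPM at dpi4 in the controls (ratio 2.20, 1.92 to 2.52), and at 116 and 151 CPM in the KO-labelled libraries (1.30, 1.14 to 1.49). *Tnfaip3* was at 252 and 477 CPM (1.89, 1.74 to 2.06) and at 291 and 434 CPM (1.49, 1.38 to 1.62). For *Tnip3* the direction differed by label, with a ratio of 1.19 (1.11 to 1.28) in the controls and 0.625 (0.581 to 0.672) in the KO-labelled libraries. Markers of other cell types also moved with time in cDC2-like cells. The 12 macrophage markers summed to 696 CPM at dpi2 and 7453 CPM at dpi4 in the controls, and to 1007 and 4655 CPM in the KO-labelled libraries. The 8 monocyte markers summed to 3381 and 1663 CPM in the controls, and to 2239 and 1701 CPM in the KO-labelled libraries. Their part in the genotype and time ratios of the members was not tested. Mature dendritic cells numbered 22 to 58 per library. At dpi2 *Tnf* had 6 UMIs in the control and 74 in the KO-labelled library (32.7 and 175 CPM), and *Nfkbiz* had 42 and 35 UMIs (229 and 82.7 CPM).

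Within a library, macrophages that held a *Tnf* UMI also held more *Nfkbia*, *Nfkbiz* and *Tnfaip3*. Cells were thinned to 2000 UMIs for this comparison, so that depth was the same on both sides. Cells with fewer UMIs were left out. In control macrophages at dpi2, 483 cells with a *Tnf* UMI had 972 CPM of *Nfkbia* and 1518 cells without had 475 CPM, a ratio of 2.05 (1.88 to 2.22). The KO-labelled dpi2 library gave 1461 and 807 CPM (1.81, 1.66 to 1.98). The dpi4 ratios were 1.94 (interval 1.81 to 2.08) for control and 2.35 (2.18 to 2.53) for KO-labelled cells. *Nfkbiz* had ratios of 1.92 to 2.37 and *Tnfaip3* of 1.59 to 2.23 over the same 4 libraries. The subunit gene *Nfkb1* was nearer to 1, from 1.07 (0.812 to 1.39) in the dpi2 control to 1.64 (1.40 to 1.93) in the dpi4 control.

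The count of members higher by the size rule, among those with 50 UMIs, was 4 of 9 in the dpi2 control (background 2.96%), 4 of 8 in the KO-labelled dpi2 library (2.6%), 5 of 9 in the dpi4 control (3.37%) and 4 of 9 in the KO-labelled dpi4 library (4.24%). In monocytes at dpi2 it was 3 of 9 in the control (2.78%) and 2 of 9 in the KO-labelled library (2.7%), with *Bcl3* lower in the latter (79.6 to 52.3 CPM). In neutrophils at dpi2 it was 4 of 5 in the control (4.19%) and 2 of 8 in the KO-labelled library (5.38%). *Tnip3* was lower in the *Tnf*-holding cells of the KO-labelled dpi2 macrophages, the 1 member below 1 by the rule there. That ratio of 0.48 (0.217 to 0.958) rests on 10 UMIs in cells with and 50 in cells without a *Tnf* UMI. In the other macrophage libraries the *Tnip3* ratio ran from 1.45 to 2.14. The share of all genes lower by the rule is not given for this split, so the lower calls have no background. Cells of a library share their source, so these ratios describe 4 libraries and not a spread between mice. The dissociation list also summed higher in the *Tnf*-holding macrophages, by ratios of 1.38 to 1.597, and lower in *Tnf*-holding neutrophils at dpi2 (0.848 and 0.951). Neutrophil markers were 1.02 to 1.87 times as high in *Tnf*-holding macrophages and 0.832 times as high in *Tnf*-holding neutrophils of both dpi2 libraries. In *Tnf*-holding monocytes at dpi2, neutrophil markers were 1.56 (control) and 2.09 (labelled KO) times as high and the dissociation list 1.26 and 1.30 times. Their part in these ratios was not tested.

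**Figure D5:**
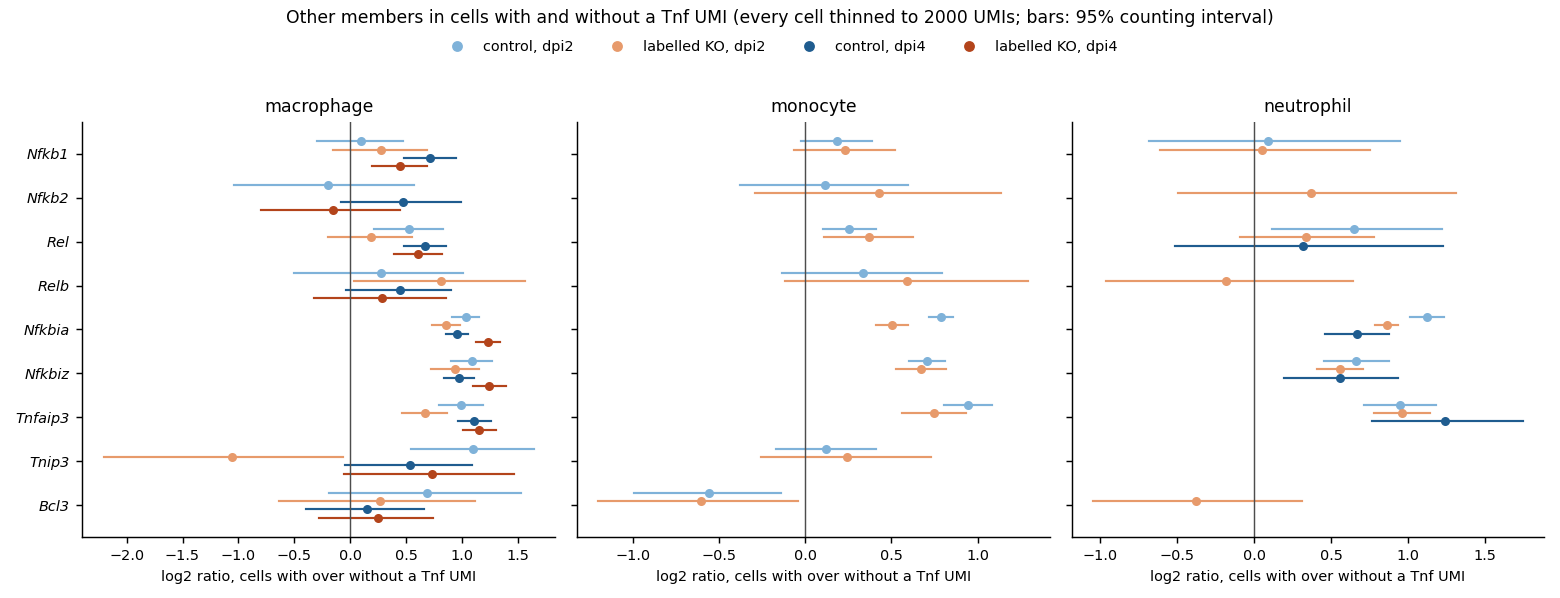
Log2 ratio of the level in cells with over cells without a *Tnf* UMI (horizontal axis) for the other 9 members, in macrophages, monocytes and neutrophils of each library, with 95% counting intervals. *Nfkbia*, *Nfkbiz* and *Tnfaip3* lie right of 0 in every library shown, and the intervals of *Nfkb1*, *Nfkb2* and *Bcl3* include 0 in most.

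The spread of UMIs over cells was also taken after thinning. The 5% of macrophages with most *Tnf* UMIs (101 of 2001 cells) held 39.3% of them in the dpi2 control, and 35.3% in the KO-labelled dpi2 library. At dpi4 these shares were 48.1% and 47.4%. In neutrophils at dpi2 the top 5% held 22.2% in the control and 24.0% in the KO-labelled library. For *Tnfaip3* in macrophages the top 5% held 29.5 to 37.5%. Such a share depends on how many UMIs a gene has, and the shares are not compared between genes. The share of macrophages with a *Tnfaip3* UMI after thinning was 29.3% (interval 27.3 to 31.4%) for control and 43.1% (40.1 to 46.1%) for KO-labelled cells at dpi2, and 34.8% and 36.0% at dpi4. Unthinned shares were 73.7% and 84.8% at dpi2, at median depths of 17670.5 and 26118 UMIs. The lowest thinned share was that of cDC1-like cells, 7.84% in the KO-labelled dpi4 library at a median depth of 15866 UMIs. *Nfkbia* was found in 52.8% of control and 68.5% of KO-labelled macrophages at dpi2 after thinning, and unthinned in 89.1% and 95.1%.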

How the data were processed

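Per the labels and the study's methods, the authors aligned the reads to mm10 with Cell Ranger 6.1.2 and deposited matrices of UMI counts per gene and cell, with no normalization. Per-gene UMI counts cannot show which exons are used. The 10x kit version differs between the labels and the methods and is not given here.

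Cells with at least 500 genes and at most 10% mitochondrial UMIs were kept, and Scrublet scores removed doublets at 0.8% per 1000 cells. Counts were scaled to 10000 per cell, and 2000 variable genes (without the members and the gene lists), 30 principal components, 15 neighbours and Leiden resolution 1 gave joint clusters (scanpy 1.11.5, leidenalg 0.10.2), named from marker lists. The study used miQC, scDblFinder, Harmony, SingleR and tests over cells, which were replaced here. UMIs were summed per class and library. With 1 library per group no test was run: intervals are exact Poisson, conditional binomial or Clopper-Pearson ones (95%, scipy 1.17.1). Scaling alternatives used edgeR 4.0.16 in R 4.3.3. The ratio, its interval and the size rule were tested on simulated counts modelled on macrophages at dpi2. The other steps were not tested on simulated data. Columns of other samples numbered 0.

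All 10 members are described, and of each further list up to 4 genes with the largest ratio past the size rule are named. For *Tnf* and *Nfkb1* the 5 genes with the most similar pattern are named, among genes with a mean of at least 20 CPM and with a pseudocount of 1. Members and lists were chosen with earlier results of these data known. Motif matches and the *Mirt1 Ccl3* cluster are described beyond that rule. Positions come from GENCODE M21 (GRCm38). Alternatives changed the scaling, thinning, cell filters, doublets, clustering, class, fold and UMI minimum.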

Additional observations from a re-analysis of the deposited data

How the results depend on the processing

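Counts of members past the size rule moved by over 1.5 times as follows. In macrophages at dpi2 the count higher was 2, and it was 4 after thinning, with doublets kept and with each library clustered by itself (where 1 was also lower), 1 with monocytes pooled in, and 0 at 2-fold. In monocytes at dpi2 the 1 higher became 0 with the mean of per-cell CPM, thinning, a 20% mitochondrial limit or 2-fold. In neutrophils at dpi2 the 0 higher and 1 lower became 1 and 0 with TMM scaling, median-of-ratios scaling and the mean of per-cell CPM, 2 were lower after thinning, with doublets or with separate clustering, and 0 at 2-fold. In cDC2-like cells at dpi2 the 1 higher became 0 after thinning, with separate clustering or at 2-fold, and 2 with doublets. In macrophages at dpi4 the 1 lower became 0 with doublets, with monocytes pooled in or at 2-fold. In monocytes at dpi4 the 3 lower became 1 with a 20% mitochondrial limit and 0 with 200 genes per cell, doublets (1 higher), pooling or 2-fold. In neutrophils at dpi4 the 2 lower became 1 after thinning or at 2-fold, and 5 with separate clustering or with the *Mirt1 Ccl3* cluster, an alternative chosen after seeing the data. In cDC2-like cells at dpi4 the 0 lower became 1 with a 20% mitochondrial limit, 200 genes per cell or separate clustering. Over time, the 5 higher in controls became 0 (2 lower) with monocytes pooled in and 1 at 2-fold. In KO-labelled macrophages the 1 higher became 0 after thinning, pooling (5 lower) or 2-fold (0 lower).

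With pooling, the log2 ratio of *Bcl3* over time in KO-labelled macrophages reversed from 0.65 to -0.041. At 2-fold the share of all genes past the rule was 4.36% (macrophages), 4.5% (monocytes), 9.3% (neutrophils) and 2.87% (cDC2-like) at dpi2, and 2.29%, 3.68%, 6.25% and 1.4% at dpi4. Over time it was 15.6% in controls and 13.7% in KO-labelled macrophages. With no UMI minimum it was 16.8% in neutrophils at dpi2, and 5.73% in monocytes and 3.64% in neutrophils at dpi4, and with a minimum of 200 UMIs 2.06% in cDC2-like cells at dpi4. The causes were not tested. No paired analysis was possible because each group is 1 library.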
